A study of Mus musculus with 6 samples.

Results

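Chemokine and chemoattractant receptors were examined in lineage-negative (Lin-) cells of blast crisis chronic myeloid leukemia (bcCML), an aggressive leukemia modelled here in mice. The set was given as a list of gene names, Cxcr4, Cxcr2, Cxcr3, Ccr1, Ccr2, Ccr7, Cx3cr1, Fpr1, Fpr2 and C5ar1, which makes 10 of the 36083 genes in the deposited table. All 10 were found there. KLS cells, a stem and progenitor fraction of the marrow, came from WT or Sdc1-/- donors on the B6 background and were infected with retroviruses carrying BCR-ABL and NUP98-HOXA9, so both groups carry both oncogenes. Doubly positive cells were transplanted, the labels name NSG mice as recipients, and Lin- cells were sorted from the spleens of cohorts that were sacrificed together. The study's general methods describe another recipient strain for such transplants. The labels give no ages, and the study's methods and its reporting summary state different age ranges for its mice. Each group has 3 libraries, made from 150 ng of RNA with a stranded mRNA kit and read as single reads of 75 bases. The sort removed cells with surface markers of T cells, B cells, erythroid cells and mature myeloid cells.

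The values are TPM, in which the reads of a gene are divided by transcript length and scaled to a fixed total per library, and which the authors then rescaled between libraries. Library sums ran from 1048875 to 1058263 in the WT-labelled libraries and from 944973 to 951814 in those labelled Sdc1-/-. The sums did not overlap between the groups, so the scaling of the libraries bears on every comparison of the groups. Across genes, log2 values correlated at 0.997 to 0.998 within groups and at 0.989 to 0.990 between groups, where genes are not independent replicates. The depth in reads is unknown. A legend of the study calls the WT libraries technical replicates, and nothing in the labels says that each library of a group has its own mouse, so the SDs and p-values below measure the spread between libraries. Sdc1, the targeted gene, goes against the labels: its values were 1.75, 1.21 and 1.51 in the WT-labelled libraries and 3.85, 3.80 and 4.12 in those labelled Sdc1-/-. In the study this allele has its signal peptide sequence disrupted, and a value per gene does not show whether a transcript is intact. The groups are therefore named by their labels. The summed values of 4 genes of the Y chromosome were 0.276 to 0.308 in the WT-labelled libraries and 68.1 to 78.4 in those labelled Sdc1-/-, so the sex of the cells and the genotype cannot be told apart.

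Chemokine receptors are G protein-coupled receptors on the cell surface that read gradients of small secreted proteins and steer migration. They are grouped by the cysteine pattern of their ligands into CXC, CC and CX3C receptors. Formyl peptide receptors and the complement receptor C5ar1 are relatives that read bacterial or mitochondrial peptides and a complement fragment, and both are best known from neutrophils and monocytes. Cxcr4 holds blood stem and progenitor cells in the marrow through its ligand Cxcl12, also called SDF-1, and Cxcr2 draws neutrophils out of it. The study measured migration of bcCML cells toward SDF-1. By flow cytometry, it did not find Cxcr4 protein reduced on Sdc1-/- bcCML cells. The values here are transcript levels, not receptor on the cell surface.

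The genes lie on 6 chromosomes of GRCm38 (GENCODE M21), the build that the submitters' processing notes give as mm10, and all 10 are protein-coding. Fpr1 (chr17:17876471-17883940, minus strand) and Fpr2 (chr17:17887824-17893952, plus strand) are neighbours that point away from each other, with 3884 bases between their starts. Ccr1 (chr9:123962124-123968692, minus strand) and Ccr2 (chr9:124101950-124113557, plus strand) lie 133257 bases apart in the cluster of CC receptor genes, and Cx3cr1 (chr9:119901616-120069879, minus strand) lies on the same chromosome. Cxcr4 (chr1:128588199-128592293, minus strand) and Cxcr2 (chr1:74153989-74161246, plus strand) share chromosome 1. C5ar1 is at chr7:16246743-16259540, Ccr7 at chr11:99144196-99155077 and Cxcr3 at chrX:101731535-101734269, all on the minus strand.
Promoter windows from RefSeq (GRCm38.p6), 250 bases before to 50 bases after each start, matched 9 of the 10 genes, all but Ccr7. The windows below are those of the neighbours Fpr1 and Fpr2, of Cxcr2 and Ccr1, which fell in the libraries labelled Sdc1-/- and hold the motif marked, and of Cx3cr1, the receptor that rose. Capitals mark GAGGAA or its reverse complement TTCCTC, the core of sites for PU.1, an ETS factor of myeloid cells.
Fpr1, chr17:17883890-17884189, minus strand: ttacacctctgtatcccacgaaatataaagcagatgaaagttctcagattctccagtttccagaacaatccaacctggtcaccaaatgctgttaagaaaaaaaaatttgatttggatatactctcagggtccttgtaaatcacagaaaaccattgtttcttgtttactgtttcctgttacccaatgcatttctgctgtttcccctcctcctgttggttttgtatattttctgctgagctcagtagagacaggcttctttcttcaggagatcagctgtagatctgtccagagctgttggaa
Fpr2, chr17:17887574-17887873, plus strand: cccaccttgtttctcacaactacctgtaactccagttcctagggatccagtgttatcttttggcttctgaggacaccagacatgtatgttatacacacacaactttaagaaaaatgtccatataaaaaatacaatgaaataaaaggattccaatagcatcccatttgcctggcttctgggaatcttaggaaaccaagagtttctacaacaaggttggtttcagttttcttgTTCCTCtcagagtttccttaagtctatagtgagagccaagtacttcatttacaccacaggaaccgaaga
Cxcr2, chr1:74153744-74154043, plus strand: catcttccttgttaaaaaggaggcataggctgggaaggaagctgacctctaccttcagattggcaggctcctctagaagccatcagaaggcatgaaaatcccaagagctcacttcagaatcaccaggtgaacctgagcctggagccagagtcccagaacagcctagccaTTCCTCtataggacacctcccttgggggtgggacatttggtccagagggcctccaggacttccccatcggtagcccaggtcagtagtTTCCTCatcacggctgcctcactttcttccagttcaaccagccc
Ccr1, chr9:123968643-123968942, minus strand: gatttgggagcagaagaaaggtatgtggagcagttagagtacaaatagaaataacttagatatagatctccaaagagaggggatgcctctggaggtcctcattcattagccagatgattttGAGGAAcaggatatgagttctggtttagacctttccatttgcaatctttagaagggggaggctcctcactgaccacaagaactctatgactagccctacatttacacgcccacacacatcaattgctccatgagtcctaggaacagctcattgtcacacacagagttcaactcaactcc
Cx3cr1, chr9:120068247-120068546, minus strand: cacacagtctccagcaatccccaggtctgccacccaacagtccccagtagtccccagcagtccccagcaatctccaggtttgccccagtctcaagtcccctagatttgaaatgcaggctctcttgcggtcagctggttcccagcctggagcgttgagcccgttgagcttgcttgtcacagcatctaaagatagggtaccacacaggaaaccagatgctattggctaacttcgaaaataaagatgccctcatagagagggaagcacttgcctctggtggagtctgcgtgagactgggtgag
The marked core occurred in 4 of the 9 windows, Cxcr2 (at -81 and at 6, counted in bases from the start at 0), Cxcr3 (-14), Ccr1 (-129) and Fpr2 (-19), and in 28.3% of all 32817 windows of this length. A second motif, TTNCNNAA, which is part of C/EBP sites, was found on either strand in 7 of the 9 windows and in 40.7% of all windows, and in Ccr1 it overlaps the marked core. The KLF box CACCC occurred in 4 windows (57.5% of all), the GATA motif NGATAA in 3 (25.3%), the TATA box TATAAA in 3 (13.6%) and the AP-1 motif TGANTCA in 0 (7.81%). Cx3cr1 held neither the marked core nor the C/EBP motif. Cxcr4, Ccr2, Fpr1 and C5ar1, which were lower, also lacked the marked core. Cxcr2, lower as well, lacked the C/EBP motif. These are matches of letters in a fixed window, and starts other than the RefSeq start, which is not always at the GENCODE gene end, were not searched.

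Of the 10 receptors, 8 reached a mean of 1 over all 6 libraries and were tested, and all 8 also had a mean of at least 1 in each group. In the libraries labelled Sdc1-/-, 7 of the 8 were lower and 1, Cx3cr1, was higher (limma on log2(value + 1), Benjamini-Hochberg adjusted p under 0.05 over 12155 genes). Sdc1 itself was higher in this group. Among all tested genes 31.3% were called lower (3810) and 29.3% higher (3564), and with all library sums set to 1000000 the counts were 2367 lower and 5290 higher, with 7 receptors lower and 1 higher as before. At least 2-fold lower on this scale were 6 of the 8 receptors, against 2.92% of all tested genes. The median log2 fold change was -1.32 for the 8 receptors and -0.0097 for all tested genes. No library of a group overlapped the other group in 8 of the 8, and this was so for 66.7% of all tested genes. Cxcr3 and Ccr7 were below the minimum mean. Exact permutation tests on single receptors (two-sided) gave p = 0.1, the smallest that 3 against 3 libraries allow, for 9 receptors and 0.2 for Ccr7.

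**Figure D1:**
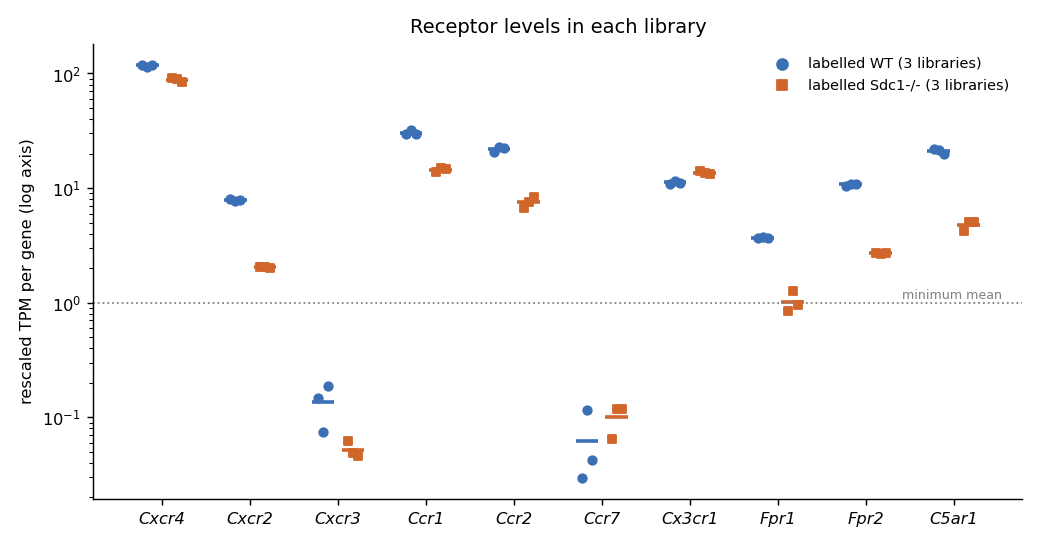
Rescaled TPM (log axis) of the 10 receptors in each of the 6 libraries, circles for those labelled WT and squares for those labelled Sdc1-/-, with a bar at each group mean and a dotted line at the minimum mean of 1. Cxcr4 stands highest in both groups, Cx3cr1 is the tested receptor with the higher squares, and Cxcr3 and Ccr7 lie below 0.19 in every library.

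Many of these receptors are also genes of mature myeloid cells, and markers of myeloid cells moved with them. All 14 neutrophil granulocyte markers were lower, beside 31.3% of all tested genes lower and 29.3% higher, with summed values of 13722 to 14620 in the WT-labelled libraries and 5067 to 5207 in those labelled Sdc1-/-. S100a8, the highest of them, stood at 5279 ± 394 against 1859 ± 85.4 (SD, n = 3 each). The primary granule genes Mpo, Elane, Prtn3 and Ctsg had log2 fold changes of -0.39, -0.70, -0.65 and -0.64, where the median of the 14 was -1.58. Transcripts such as S100a8 were thus abundant although the sort used antibodies to surface markers of granulocytes. Which cells made them was not tested. Of the 12 monocyte or macrophage markers 9 were tested and all 9 were lower, with summed values of 767 to 785 against 351 to 362, and Ly6c2, the highest, stood at 490 ± 12.5 against 217 ± 5.74. Csf1r, Ms4a6c and Cd14 among these 9, and Gzma of NK cells, reached the minimum mean only through the WT-labelled libraries, which favours a lower call. Erythroid markers were lower in 5 of 6, with summed values of 8665 to 9169 against 4927 to 5315, and higher in 1. Of the tested markers of other cells, dendritic cells had 3 of 4 lower, NK cells 3 of 4 lower, megakaryocytes 4 of 5 lower and 1 higher, endothelium or stroma 1 lower and 1 higher of 2, T cells 1 of 1 higher and B cells 0 of 1 called. Of 9 stem or progenitor cell markers 5 were higher and 2 lower, with summed values of 394 to 417 against 445 to 452, and Sox4 among the 5 reached the minimum mean only through the libraries labelled Sdc1-/-. No list held a marker at 0 in every library. Cd3e of T cells, Ncr1 of NK cells and Cdh5 of endothelium were at most 0.038, 0.024 and 0.024, but other markers of these lists were higher, with Lck at 6.05 to 14.7, Nkg7 at 279 to 344, Klrb1c at 6.22 to 7.24, Pecam1 at 12.8 to 16.0 and Col1a2 at 18.4 to 23.2. In bulk RNA, fewer cells of a type and less RNA per cell cannot be told apart, and the part of these marker differences in the receptor values was not tested.

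Among CXC receptors, Cxcr4 had the highest level of the 10 in both groups. Its values were 119, 115 and 118 in the WT-labelled libraries and 90.7, 89.2 and 85.1 in those labelled Sdc1-/-. The groups did not overlap, and the gap was several times the spread within either one. The group means were 117 ± 2.48 and 88.3 ± 2.91 (SD, n = 3 each), a fall of 0.41 on the log2 scale (standard error, SE, 0.035, 95% confidence interval -0.49 to -0.32, adjusted p = 8.2e-05 from limma). A library sum of 1000000 moved this log2 fold change to -0.26 and the median of all tested genes to 0.12, and relative to the median of all tested genes it was -0.38 there and -0.40 as reported. Over the 6 libraries, 96.3% of all genes had a lower mean than Cxcr4.

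Cxcr2, the receptor for the neutrophil-attracting CXC chemokines, stood at 7.97, 7.75 and 7.86 in the WT-labelled libraries. In those labelled Sdc1-/- it stood at 2.04, 2.06 and 2.01. Both groups were tight and far apart. The log2 fold change was -1.55 (SE 0.050, adjusted p = 1.6e-06, limma). Cxcr3, a receptor of activated T cells for interferon-induced chemokines, had values of 0.15, 0.074 and 0.19 in the WT-labelled libraries and 0.062, 0.049 and 0.046 in those labelled Sdc1-/-. The libraries did not overlap, but at this level the gene was left untested, and with no minimum mean the adjusted p was 0.083 (limma).

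Among CC receptors, Ccr1, which binds Ccl3 and related inflammatory chemokines, had values of 29.4, 32.2 and 29.5 in the WT-labelled libraries and 13.8, 15.0 and 14.6 in those labelled Sdc1-/-. This was a log2 fold change of -1.02 (SE 0.051, adjusted p = 7.5e-06, limma). Ccr2, the receptor for Ccl2 that brings inflammatory monocytes out of the marrow, stood at 20.7, 22.9 and 22.5 against 6.76, 7.63 and 8.32, a log2 fold change of -1.43 (SE 0.076, adjusted p = 9.2e-06, limma). Every library labelled Sdc1-/- was below every library labelled WT for both receptors. Ccr7, which guides dendritic cells and T cells to lymph nodes, was near 0 in all libraries, 0.029, 0.11 and 0.043 against 0.064, 0.12 and 0.12. The groups overlapped, and with no minimum mean the adjusted p for Ccr7 was 0.41 (limma).

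Cx3cr1, the fractalkine receptor of patrolling monocytes and macrophages, was higher in the libraries labelled Sdc1-/-. Its values were 10.9, 11.5 and 11.2 in the WT-labelled libraries and 14.2, 13.6 and 13.2 in those labelled Sdc1-/-. The rise was small beside most of the falls, but the groups did not overlap. The log2 fold change was 0.27 (SE 0.044, 95% confidence interval 0.16 to 0.37, adjusted p = 0.0017, limma). A library sum of 1000000 moved it to 0.40, and relative to the median of all tested genes it was 0.28 both there and as reported. Cx3cr1 and Ccr2 thus moved in opposite directions. All 9 tested monocyte or macrophage markers were lower, and which cells carried either receptor transcript was not tested. Ccr2 was 1.97 ± 0.064 times Cx3cr1 in the WT-labelled libraries and 0.56 ± 0.075 times Cx3cr1 in those labelled Sdc1-/- (SD, n = 3 each). This ratio was chosen after its values were seen and was not tested.

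Both formyl peptide receptors were lower. Fpr1 had values of 3.70, 3.72 and 3.63 in the WT-labelled libraries and 0.85, 1.26 and 0.95 in those labelled Sdc1-/-. Fpr2, which also answers to annexin and serum amyloid ligands, had 10.5, 10.9 and 11.0 against 2.71, 2.64 and 2.73. The libraries of the groups did not overlap in either gene, and Fpr2 stood above Fpr1 in every library. The log2 fold changes were -1.22 for Fpr1 (SE 0.089, adjusted p = 3.7e-05, limma) and -1.67 for Fpr2 (SE 0.048, adjusted p = 9.7e-07, limma). A pseudocount of 1 is of the order of the Fpr1 values and holds its fold down, and with a pseudocount of 0.1 the log2 fold change of Fpr1 was -1.78. The ratio of Fpr2 to Fpr1 was 2.92 ± 0.096 in the WT-labelled libraries and 2.72 ± 0.57 in those labelled Sdc1-/- (SD, n = 3 each), which overlap.

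C5ar1, the receptor for the complement fragment C5a, had the most negative log2 fold change of the 8 tested receptors. Its values were 22.1, 21.4 and 19.9 in the WT-labelled libraries and 4.25, 5.04 and 5.09 in those labelled Sdc1-/-. The groups were far apart. The log2 fold change was -1.94 (SE 0.073, adjusted p = 2.6e-06, limma).

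**Figure D2:**
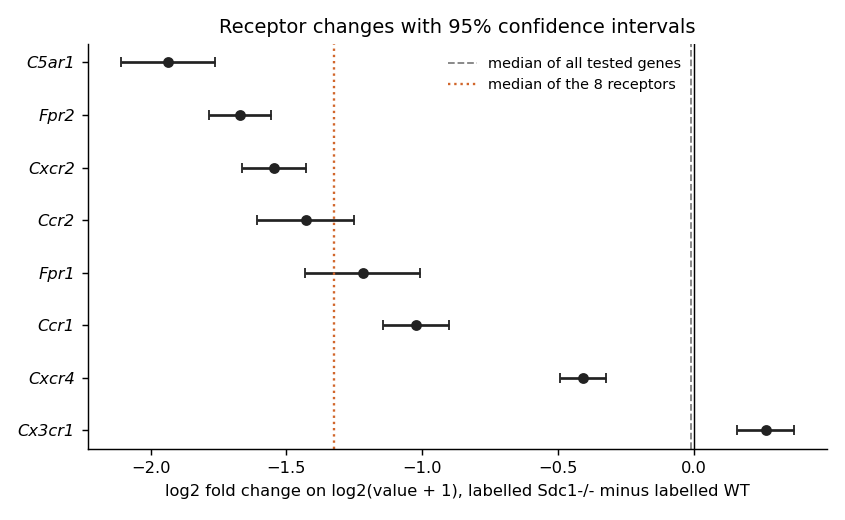
Log2 fold change on the log2(value + 1) scale (x axis, libraries labelled Sdc1-/- minus those labelled WT) of the 8 tested receptors, with 95% confidence intervals from limma. The dashed line is the median of all tested genes (-0.0097) and the dotted line that of the 8 receptors (-1.32), and Cx3cr1 lies alone to the right of 0.

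The order of the levels also differed between groups. TPM is per transcript length, so levels can be set beside each other. In the WT-labelled libraries the order was Cxcr4, Ccr1, Ccr2, C5ar1, Cx3cr1, Fpr2, Cxcr2, Fpr1, Cxcr3 and Ccr7. Neighbours whose libraries overlapped were Ccr2 and C5ar1, Cx3cr1 and Fpr2, and Cxcr3 and Ccr7. In those labelled Sdc1-/- the order was Cxcr4, Ccr1, Cx3cr1, Ccr2, C5ar1, Fpr2, Cxcr2, Fpr1, Ccr7 and Cxcr3, and the neighbours that overlapped were Ccr1 and Cx3cr1. Cx3cr1 thus stood at place 5 in the WT-labelled libraries and at place 3 in those labelled Sdc1-/-. Cxcr4 was 3.88 ± 0.27 times Ccr1 in the first group and 6.13 ± 0.40 times Ccr1 in the second (SD, n = 3 each, not tested). The summed level of the 10 receptors was 224 to 225 in the WT-labelled libraries and 132 to 137 in those labelled Sdc1-/-, and Cxcr4 made up the larger part of each sum.

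Some receptor transcripts share sequence with other genes, among which kallisto divides the reads. Of the stretches of 31 bases in annotated Fpr2 transcripts, 43.0% also occur in another gene, mostly in the predicted gene Gm5966 and in Fpr3. Both were near 0 in all libraries, with highest values of 0.033 and 0.051, so nearly all of the signal was given to Fpr2. The shared part was 7.70% for Cxcr2, 3.41% for Ccr2, 1.75% for Cx3cr1, 1.55% for Fpr1 and 0.64% for Ccr1. For Cxcr4, Cxcr3, Ccr7 and C5ar1 it was 0.

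Other receptors for chemoattractants made a list of 35 genes, 5 of them at 0 in every library and 10 of them tested. Lower in the libraries labelled Sdc1-/- were 8 of the 10, higher was 0, and 2 were not called, where 31.3% of all tested genes were lower and 29.3% higher. Their median log2 fold change was -0.47, against -0.0097 for all tested genes. Ccr4 and Ptafr were among those that reached the minimum mean only through the WT-labelled libraries, where they stood higher. With no minimum mean, 30 were tested and 2 of low level, Ackr4 and S1pr3, were called higher. Ltb4r1, the leukotriene B4 receptor of neutrophils, fell from 48.5, 42.4 and 44.5 to 16.4, 16.1 and 15.6, on the log2 scale a change of -1.44 (SE 0.054, adjusted p = 2.6e-06, limma). C3ar1, the receptor for complement C3a, had a log2 fold change of -0.88, the platelet activating factor receptor Ptafr -0.78 and Ccr4 -0.51 (adjusted p = 4.1e-05, 2.2e-04 and 0.023, limma). The call on Ccr4 was lost with no minimum mean (adjusted p = 0.058, limma) and without replicate 1 or 3 of the libraries labelled Sdc1-/- (adjusted p = 0.063 and 0.068, limma). S1pr4, a receptor of blood cells for sphingosine 1-phosphate, went from 29.3 ± 1.50 to 21.3 ± 0.72 (SD, n = 3 each), a log2 fold change of -0.44 (adjusted p = 2.6e-04, limma). C5ar2, the second receptor for C5a, had a log2 fold change of -0.23 (adjusted p = 0.026, limma), against -1.94 for C5ar1. The call on C5ar2 was lost with no minimum mean (adjusted p = 0.065, limma), on a library sum of 1000000 (log2 fold change -0.11, adjusted p = 0.21, limma) and without replicate 1 of the WT-labelled libraries or replicate 1 or 3 of the others (adjusted p = 0.080, 0.058 and 0.073, limma). C5ar1 was 3.86 ± 0.13 times C5ar2 in the WT-labelled libraries and 1.07 ± 0.15 times C5ar2 in those labelled Sdc1-/- (SD, n = 3 each), a ratio chosen after its values were seen and not tested. Ackr3, the scavenging second receptor for Cxcl12, was at most 0.020 in any library.

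**Figure D3:**
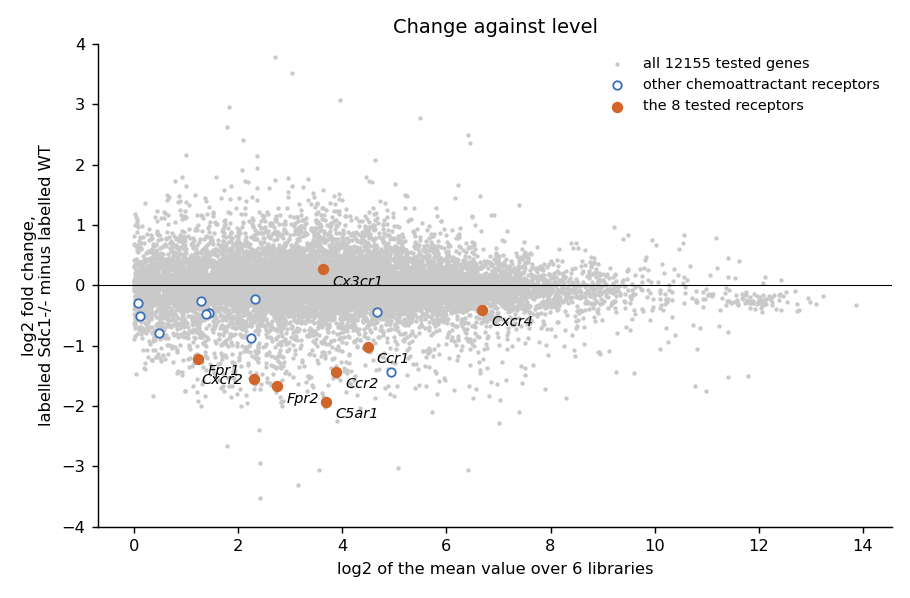
Log2 fold change (y axis, libraries labelled Sdc1-/- minus those labelled WT, on log2(value + 1)) against the log2 of the mean value over 6 libraries (x axis) for the 12155 tested genes, with the 8 tested receptors filled and the 10 other chemoattractant receptors open. All but Cx3cr1 of these 18 lie below 0, and 7 tested genes fall outside the plotted range of plus and minus 4.

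Ligands of the 10 receptors made a list of 25 genes, of which 10 were tested, 9 were lower and 1 was higher, beside 31.3% and 29.3% of all tested genes. Their median log2 fold change was -1.03. Ccl6, a myeloid chemokine for Ccr1, had values of 201, 223 and 217 in the WT-labelled libraries and 39.8, 44.0 and 45.2 in those labelled Sdc1-/-, a log2 fold change of -2.29 (SE 0.059, adjusted p = 8.7e-07, limma). Ccl9, also a Ccr1 ligand, went from 477 ± 9.70 to 227 ± 6.33 (SD, n = 3 each), a log2 fold change of -1.07 (adjusted p = 1.2e-06, limma). Ccl5 and Ccl3 had log2 fold changes of -1.87 and -1.18 (adjusted p = 1.1e-05 and 6.5e-06, limma). Anxa1, a ligand of Fpr2, stood at 342 ± 14.6 against 153 ± 4.78 (log2 fold change -1.15, adjusted p = 2.4e-06, limma). Camp, the neutrophil granule peptide precursor whose product acts on Fpr2, stood at 554 ± 12.0 against 404 ± 12.1 (SD, n = 3 each, log2 fold change -0.46, adjusted p = 3.8e-05, limma). Pf4, a platelet chemokine listed as a ligand of Cxcr3, was the 1 that rose, by 0.20 on the log2 scale (adjusted p = 0.0042, limma), while Cxcr3 was near 0. Cxcl12, the ligand of Cxcr4, was below the minimum mean, with values of 0.80, 0.92 and 1.04 in the WT-labelled libraries and 0.10, 0.17 and 0.11 in those labelled Sdc1-/-. The groups did not overlap, and with no minimum mean the log2 fold change of Cxcl12 was -0.77 (adjusted p = 3.6e-04, limma). Ligands of Ccr2, Ccr7, Cx3cr1 and C5ar1 were all below the minimum mean.

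Signalling genes downstream of such receptors made a list of 38, of which 35 were tested, 22 were lower, 4 were higher and 9 were not called. Their median log2 fold change was -0.21. Pik3r5 among the 22 reached the minimum mean only through the WT-labelled libraries, which favours a lower call. Over all tested genes 31.3% were lower and 29.3% higher. On the log2(value + 1) scale 0 of them reached 2-fold, while as ratios of group means Grk3 was 2.30 times as high and Rgs1 2.37 times as low in the libraries labelled Sdc1-/-. On a library sum of 1000000, 14 were lower and 9 higher, beside 2367 lower and 5290 higher of 12150 genes. Grk3, a kinase that desensitises receptors including Cxcr4, rose from 2.89, 3.04 and 2.97 to 6.83, 6.95 and 6.71, a log2 fold change of 0.98 (SE 0.050, adjusted p = 8.0e-06, limma). The receptor kinases Grk2 and Grk6 stood at higher levels and were lower. Grk2 went from a mean of 102 to 83.5 and Grk6 from 76.4 to 65.7. The log2 fold changes of these 2 kinases were -0.28 and -0.21 (adjusted p = 0.0031 and 0.0020, limma). The phospholipases Plcb3 and Plcb2 rose, like Grk3, with log2 fold changes of 0.78 and 0.67 (adjusted p = 1.7e-05 and 4.1e-05, limma). Rgs1, which shortens G protein signals, had a log2 fold change of -0.92 and Pik3cg, the catalytic subunit of the phosphoinositide 3-kinase driven by these receptors, -0.80 (adjusted p = 0.0043 and 8.8e-06, limma). Rac2, a GTPase of blood cell migration, stood at 370 ± 23.1 against 264 ± 17.7, and Gnb1, a G protein beta subunit, at 337 ± 3.25 against 309 ± 8.45 (SD, n = 3 each). Their log2 fold changes were -0.48 and -0.12 (adjusted p = 5.2e-04 and 0.010, limma). The direction of Gnb1 rests on the scaling: on a library sum of 1000000 its log2 fold change was 0.024 (adjusted p = 0.48, limma), and after quantile normalization it was -0.013 (adjusted p = 0.71, limma). Arrb2, the arrestin that takes receptors out of signalling, had a log2 fold change of -0.72 (adjusted p = 3.7e-06, limma). Plcb2, Arrb2, C5ar2, Grk2, Grk6 and Pik3r5 fall outside the rule for named genes and were chosen after their values were seen.

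**Figure D4:**
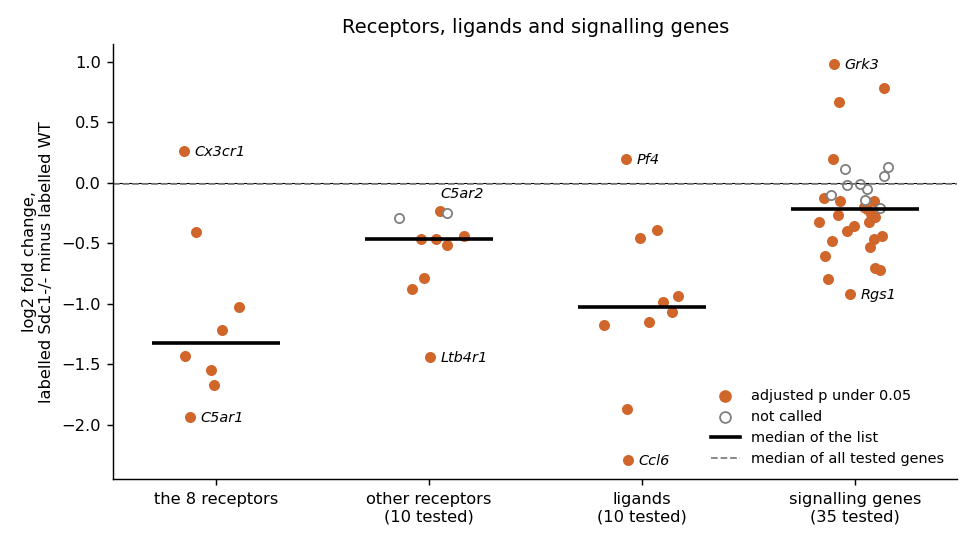
Log2 fold change (y axis, libraries labelled Sdc1-/- minus those labelled WT, on log2(value + 1)) of the tested receptors, other receptors, ligands and signalling genes, filled where the adjusted p was under 0.05, with a bar at each list's median and the lowest and highest gene of each list named. The medians are -1.32, -0.47, -1.03 and -0.21, and the dashed line marks the median of all tested genes.

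Genes with a pattern most like that of Cxcr4 were ranked by the mean absolute difference of log2(value + 1), centred on each gene's own mean, over the 6 libraries. Of 8965 genes compared, the nearest were Rab4a, a GTPase of endosome recycling (0.012), the ribosomal protein gene Rpsa (0.013), the tubulin gene Tuba1c (0.013), the adhesion receptor gene Adgrg3 (0.014) and Lamtor1 of the lysosome membrane (0.015). Rab4a went from 66.1 ± 0.93 to 48.9 ± 1.50 (SD, n = 3 each). The libraries form separate groups, so this likeness is mostly a like difference between the groups.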

How the data were processed

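RNA-seq of Lin- bcCML cells gave 6 libraries, 3 labelled WT and 3 labelled Sdc1-/-. Per the submitters' processing notes the authors used kallisto, sleuth 0.30.0 and mm10. They deposited 1 value per gene and library, TPM rescaled between libraries (unit: signal). Depth is unknown. A second deposited table holds the authors' own comparison by sleuth's Wald test and was not used.

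The receptors and the lists of other receptors, ligands, signalling genes and markers were chosen with earlier results of these data known. The design assumed TPM, and its test was kept for the rescaled values: limma 3.58.1 in R 4.3.3 on log2(value + 1), for the 12155 of 36083 genes with a mean of at least 1, group as the only term, eBayes with a variance trend, Benjamini-Hochberg adjustment at 0.05. Fold changes on this scale understate the change of low genes. The fit was checked on simulated data with independent noise, a small share of changed genes and no difference in scaling between libraries. That check does not cover how the calls depend on scaling. Named were all 10 receptors, per list the 4 called genes with the largest absolute change and the 2 with the highest mean, Cxcl12 and Ackr3, the highest marker of the lists described, Sdc1, and the 5 genes nearest to Cxcr4 in pattern. Plcb2, Arrb2, C5ar2, Grk2, Grk6, Pik3r5 and some markers were added after their values were seen. In all, 15 alternatives were run. Tables and figures used Python 3.11.15, pandas 2.3.3, scipy 1.17.1 and matplotlib 3.10.9. Values of some listed genes are not reported here.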

Additional observations from a re-analysis of the deposited data

How the results depend on the processing

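Every call on the 8 tested receptors kept its direction and its side of the threshold in each of the 15 alternatives in which it was tested, and Cxcr2 and Fpr1 were not tested at a minimum mean of 5. Over these settings the log2 fold change ran from -0.43 to -0.26 for Cxcr4, from 0.24 to 0.40 for Cx3cr1 and from -2.12 to -1.80 for C5ar1. At a minimum mean of 5 only 2 other receptors were tested and both were lower, 2 in place of 8. With no minimum mean 2 other receptors were called higher, in place of 0. When all libraries were brought to a sum of 1000000, the median over all genes went from a log2 fold change of -0.0097 to 0.12, the signalling genes called lower were 14 in place of 22 and those called higher 9 in place of 4, and 2367 genes were lower and 5290 higher, 30.9% lower in place of 51.7% (3810 and 3564). Leaving out each library in turn gave 3380 to 3608 lower and 3083 to 3353 higher genes, and kept 7 receptors lower and 1 higher. Whether equal numbers in the labels pair the libraries is not known. The correlations of deviations for the 3 pairs of equal number were 0.15, -0.0083 and 0.018, and not every library was nearest to its own number. With 3 libraries per group the deviations within a group are tied to each other, so these correlations cannot decide it. The replicate block gave 3971 lower and 3653 higher genes and left 7 receptors lower and 1 higher. Of the other named receptors, ligands and signalling genes, leaving aside Grk2, Grk6 and Pik3r5, the calls on Ccr4, C5ar2 and Gnb1 were lost in 3, 5 and 2 settings. Gnb1 changed direction on a library sum of 1000000 (log2 fold change 0.024). How the calls on Grk2, Grk6 and Pik3r5 held over the settings is not reported here. The depth in reads is unknown, so no counting limit can be given for low levels such as those of Cxcr3 and Ccr7.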
